A study of Mus musculus with 12 samples.

Results

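The subject was CTCF binding around 9 genes that encode the core transcription factors of the hepatocyte: Hnf4a, Nr5a2, Foxa1, Foxa2, Foxa3, Cebpa, Cebpb, Onecut1 and Prox1. CTCF ChIP-seq peaks of 6 mouse liver libraries were merged into sites wherever they shared at least 1 bp, which gave 76061 sites. A site belonged to a gene when it overlapped the gene body or the 20 kb on either side, and 85 sites did so, between 4 and 13 per gene. All animals were wild-type male C57BL6/Ncrl mice aged 3 to 4 months on normal chow, and whole liver was used. In the 3 fed libraries the mice had food ad libitum and tissue was taken at zeitgeber time (ZT, hours since lights on) 16. In the 3 starved libraries food had been withheld for 24 h and tissue was taken at ZT13, so starvation and collection time cannot be told apart. CTCF was precipitated with a Diagenode antibody (C15410210). Nothing in the labels says whether each library came from its own mouse, so the tests measure the spread between libraries, which may be technical. Whole liver holds cells other than hepatocytes, and fewer cells with a bound site cannot be told apart from weaker binding per cell. Peak lists hold no expression values, so the labelled tissue could not be checked against marker transcripts.

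CTCF is a zinc finger protein that binds a long, mostly invariant DNA motif and, with cohesin, holds the ends of chromatin loops and marks the borders of insulated neighbourhoods, often at or near promoters. The 9 factors form a cross-regulated circuit. HNF4A and LRH-1 (Nr5a2) are nuclear receptors, FOXA1, FOXA2 and FOXA3 are forkhead factors that open chromatin in the liver, C/EBPα and C/EBPβ are leucine zipper factors of metabolic and acute phase genes, and HNF6 (Onecut1) and PROX1 are homeodomain proteins of liver development.

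The lists differed in length before any gene was considered. In fed there were 56103, 49030 and 74950 peaks per list and in starved 30752, 23926 and 29866, so the longest starved list fell short of the shortest fed one. Read depth was not given in the sources used here, and the part that depth and list length play in the counts of sites was not tested. Counts on lists of equal length are given as a description. Over all sites, 59% were called in all 3 fed libraries (fed sites). Of the fed sites, 29.1% had no starved peak and 49.3% were called in all 3 starved libraries too. The authors' score orders the peaks of each list. It was turned into a percentile rank within the list, with 100 for the best peak. Fed and starved ranks were tested against each other only after every list had been reduced to its 23926 best peaks. All other ranks given are those of the full lists. Those lists differ in length, so fed and starved ranks there are not on the same scale and their differences show no change.

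The promoters of Foxa3, Cebpa and Cebpb were the 3 of the 14 annotated promoters of these genes that carried a peak of every library. Their sequences are shown because each holds the letters AGGGGGC, one of 4 forms of the CTCF motif's core searched on both strands (AGAGGGC or AGATGGC or AGGGGGC or AGGTGGC, whose matches cannot overlap on one strand and on opposite strands can share only their GC ends). The promoters of Onecut1 and Foxa1 follow for comparison, the first with a core but no peak over that core and the second with no core. Each runs 5′ to 3′ in the direction of the gene, from 250 bases before to 50 bases after the annotated start (RefSeq, GRCm38.p6, the same build as mm10). Capitals mark the cores, and one that lies on the opposite strand reads as its reverse complement. Foxa3 is at chr7:19023490-19023789 on the minus strand, Cebpa at chr7:35119043-35119342 on the plus strand, Cebpb at chr2:167688665-167688964 on the plus strand, Onecut1 at chr9:74861671-74861970 on the plus strand and Foxa1 at chr12:57546062-57546361 on the minus strand.
Foxa3 promoter: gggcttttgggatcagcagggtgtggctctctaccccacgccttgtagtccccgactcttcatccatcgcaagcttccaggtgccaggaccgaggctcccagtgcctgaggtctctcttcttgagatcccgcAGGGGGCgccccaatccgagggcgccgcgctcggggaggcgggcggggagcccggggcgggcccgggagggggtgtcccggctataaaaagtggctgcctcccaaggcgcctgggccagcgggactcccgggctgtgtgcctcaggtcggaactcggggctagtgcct
Cebpa promoter: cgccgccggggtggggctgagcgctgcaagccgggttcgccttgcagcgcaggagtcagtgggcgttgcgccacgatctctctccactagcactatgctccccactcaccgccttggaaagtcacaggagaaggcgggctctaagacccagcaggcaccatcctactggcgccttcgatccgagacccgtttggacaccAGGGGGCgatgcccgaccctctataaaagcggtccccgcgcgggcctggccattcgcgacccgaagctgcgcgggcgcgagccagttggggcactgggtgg
Cebpb promoter: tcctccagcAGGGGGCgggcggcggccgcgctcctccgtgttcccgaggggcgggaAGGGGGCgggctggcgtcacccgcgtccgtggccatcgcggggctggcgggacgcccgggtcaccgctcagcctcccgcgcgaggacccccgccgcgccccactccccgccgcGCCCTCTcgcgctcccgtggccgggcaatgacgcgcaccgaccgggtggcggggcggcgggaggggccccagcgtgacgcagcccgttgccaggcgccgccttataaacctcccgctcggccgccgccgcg
Onecut1 promoter: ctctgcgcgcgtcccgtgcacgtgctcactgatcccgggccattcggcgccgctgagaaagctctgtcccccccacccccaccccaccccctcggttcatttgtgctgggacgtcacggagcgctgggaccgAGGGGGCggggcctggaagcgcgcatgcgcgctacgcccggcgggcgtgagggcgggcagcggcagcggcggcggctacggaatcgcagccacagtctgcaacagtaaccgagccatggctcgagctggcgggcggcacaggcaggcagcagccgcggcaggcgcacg
Foxa1 promoter: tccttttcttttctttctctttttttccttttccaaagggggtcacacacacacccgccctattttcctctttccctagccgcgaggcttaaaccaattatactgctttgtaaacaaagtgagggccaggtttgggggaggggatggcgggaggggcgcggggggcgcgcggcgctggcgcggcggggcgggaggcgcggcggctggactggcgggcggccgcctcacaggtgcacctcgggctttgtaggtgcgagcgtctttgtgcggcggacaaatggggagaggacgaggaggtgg

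In the Foxa3 promoter the core is centred 115 bases before the start, and it lay inside a peak of all 6 libraries, at 4 to 73 bp from the peak's midpoint. The Cebpa core is centred 48 bases before the start and also lay inside a peak of all 6 libraries. In Cebpb the AGGGGGC cores are centred 238 and 191 bases before the start and both lay inside a peak of every library, at 3 to 79 bp and 20 to 126 bp from the nearest midpoint. The other Cebpb core, AGAGGGC on the opposite strand, is centred 78 bases before the start and also lay inside a peak of every library. Of all 32851 promoters in the RefSeq table, 27.6% held 1 of the 4 cores and 5.06% carried a peak of every library. Peaks of all 6 libraries lay over 10.5% of the promoters with a core and 2.98% of those without. Among the 14 promoters here 7 held a core, and a core in the window did not by itself go with a peak: the Onecut1 core is centred 115 bases before the start, as in Foxa3, and lay in no peak.

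The remaining promoters had fewer peaks. Of the 3 Foxa2 promoters, the one with its start at position 148045948 held 3 cores and carried peaks of all 3 fed libraries and 1 starved library, at percentile ranks of 32.3, 37.1 and 44.0 in fed and 14.4 in starved. The Foxa1 promoter was reached by the peaks of 2 fed libraries and of no starved library. At Onecut1 the site chr9:74861442-74861696 reached the upstream end of the promoter, short of the core. It did so with a peak of the third fed library alone, at rank 20.75. The downstream Hnf4a promoter, the main one of adult liver, carried a peak of the third fed library alone, at rank 14.1, and the upstream one carried none. Neither Nr5a2 promoter nor either Prox1 promoter had a peak, although the Prox1 promoters held 4 cores between them. Of these promoters, the plot of peaks around the starts shows Foxa1 alone, beside Foxa3, Cebpa and Cebpb.

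**Figure D1:**
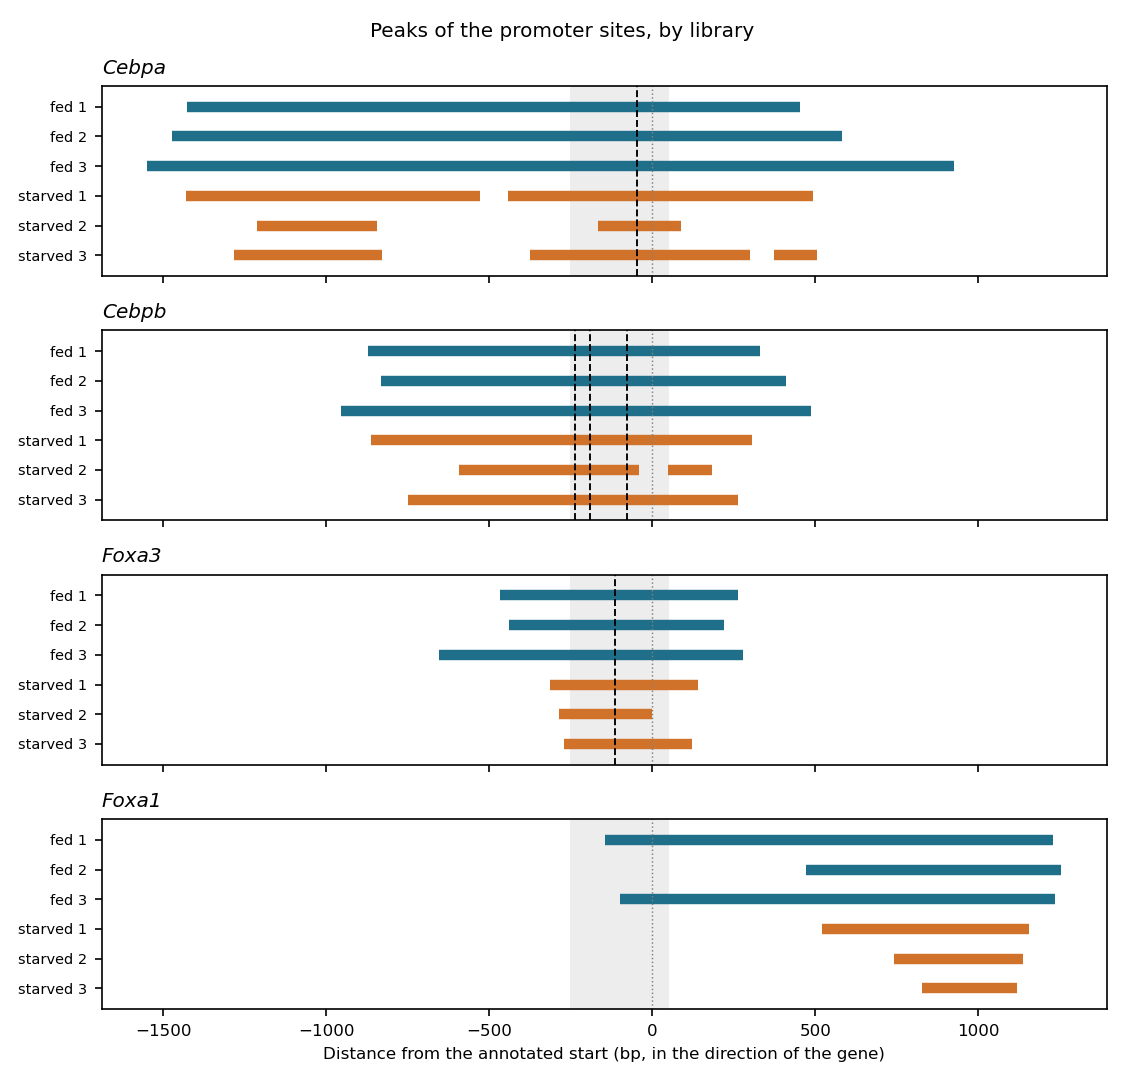
Peaks of each library (horizontal bars, 3 fed and 3 starved) at the promoter sites of Cebpa, Cebpb, Foxa3 and Foxa1. The horizontal axis is the distance in bp from the annotated start. Over Cebpa each fed library has 1 peak of 1881 to 2474 bp, and the starved libraries have 2 or 3 separate, narrower peaks.

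At the shared promoter sites, the starved peaks were narrower. In Cebpa they were split in every starved library, and in Cebpb in the second starved library alone. The fed peaks over the Cebpa start measured 1881, 2054 and 2474 bp. The starved libraries each had a peak over the start, of 936, 255 and 675 bp with percentile ranks of 86.9, 84.0 and 96.1, and a separate lower-ranked peak upstream, of 902, 371 and 453 bp with ranks of 35.4, 21.6 and 30.8. The core therefore lay 9 to 73 bp from the midpoint of the starved peak over the start, but 265 to 441 bp from the midpoint of the fed peaks. At the Cebpb promoter site the fed peaks measured 1206, 1245 and 1441 bp. The best starved peaks there measured 1169, 554 and 1012 bp, and the second starved library had a further peak of 137 bp. At the Foxa3 promoter site the fed peaks measured 732, 659 and 932 bp and the starved peaks 455, 286 and 393 bp. All but that of the second starved library, which ended 2 bp before the start, lay over the start. In Foxa1 the fed peaks of the site beside the start measured 1378, 784 and 1336 bp. The starved peaks there measured 635, 394 and 293 bp and ended at least 521 bp short of the start. The peak of the second fed library also ended short of the start, by 471 bp. Width was looked at after the promoters had been seen. At 20 of the 21 member sites called in all 6 libraries, the best peak of every starved library was narrower than that of every fed library, and the same held for 90.1% of the 22131 sites of the genome called in all 6. The median width of a list was 352 to 385 bp in fed and 247 to 352 bp in starved.

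The number of sites per gene is given next, in the order of the factors' roles. For each gene the 3 fed and 3 starved counts were compared by an exact two-sided permutation test over all 20 labellings, whose smallest possible p is 0.1, and a gene was called when the groups did not overlap. By this rule 50.7% of the 35453 genes with a site held more sites in every fed than in every starved library, and 0% the reverse. No gene passed after Benjamini-Hochberg adjustment of the exact permutation p (smallest adjusted p = 0.197), and 0 had an unadjusted p under 0.05, which this design does not allow. Of the 9 genes 6 were called, all with more sites in fed. The share rises with the number of sites: among the 17399 genes with 4 to 13 sites, the range of the 9, it was 68.2%, so 6 of 9 is near the background. The median difference, starved minus fed, was −4.00 sites for the 9 genes and −1.33 over all genes tested. All genes tested include those with fewer than 4 sites, whose difference cannot reach −4.00. No median is given for the genes with 4 to 13 sites, so these medians do not show a larger difference at the 9 genes than at genes with as many sites.

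**Figure D2:**
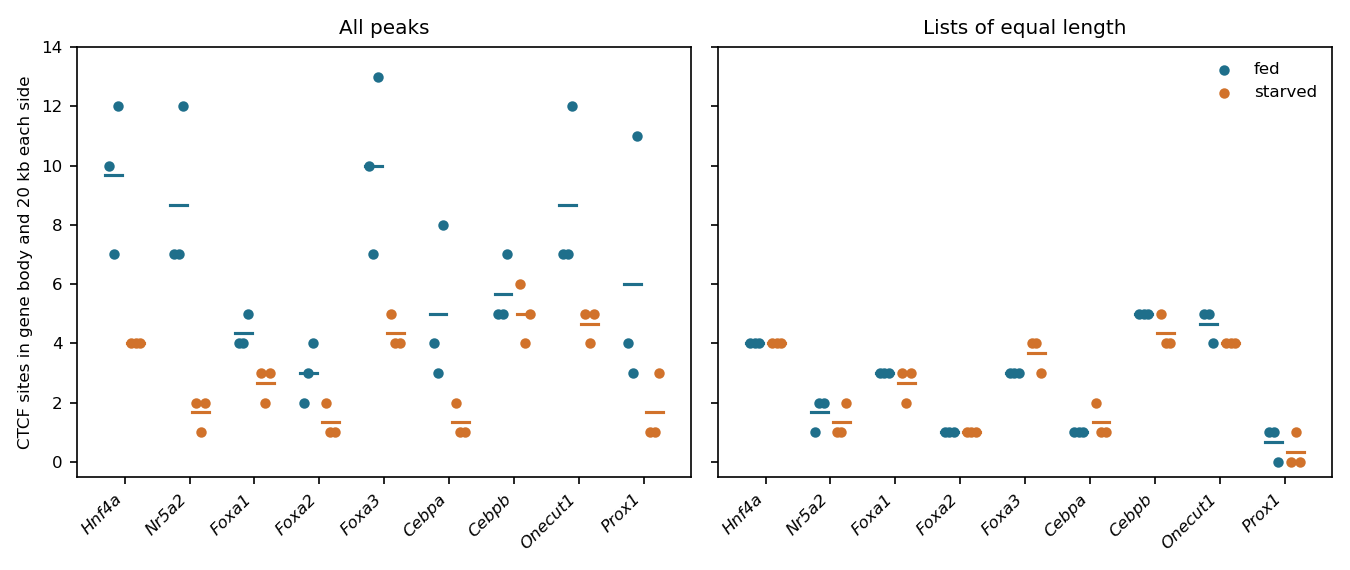
Number of CTCF sites in each gene body and 20 kb either side (vertical axis), 1 point per library with 3 fed and 3 starved libraries per gene and a short line for each mean, in the full lists and in lists of equal length. In the full lists the groups do not overlap for 6 genes, while in lists of equal length every gene has points of both groups at the same or adjacent values.

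Hnf4a (chr2:163506811-163572907, plus strand), which encodes the nuclear receptor that maintains the hepatocyte programme, had 12 sites. The fed libraries held 10, 7 and 12 of them and the starved libraries 4, 4 and 4. The groups did not overlap, with 9.67 ± 2.52 (SD, n = 3) sites in fed and 4.00 ± 0.00 (SD, n = 3) in starved (exact permutation p = 0.1). With only peaks at or above the median score of all lists (the score limit), the difference of −5.67 sites became −1 and the groups overlapped. The 4 starved sites were the same 4 in each library. A pair of them, chr2:163531592-163532914 and chr2:163534516-163535562, lies between the upstream and downstream starts of the gene, over the antisense gene Hnf4aos. The other pair, chr2:163586183-163586927 and chr2:163592029-163592479, lies past the 3′ end. The site at chr2:163586183-163586927 ranked high throughout, at percentiles of 92.9, 97.5 and 98.9 in fed and 97.2, 93.1 and 96.5 in starved. Its neighbour at chr2:163592029-163592479 was lower, at 76.8, 72.4 and 78.7 in fed and 68.3, 46.8 and 54.5 in starved.

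The 3 fed sites of Hnf4a with no starved peak were all inside the gene. They were chr2:163525618-163526024, chr2:163540619-163540880 and chr2:163555479-163555878, with mean fed ranks of 46.2, 25.8 and 40.4. The first of these had the highest mean fed rank of any member site without a starved peak. Exons and introns were not analysed here.

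Nr5a2 (chr1:136842562-136960448, minus strand) encodes LRH-1, a nuclear receptor of bile acid and cholesterol metabolism. Of its 12 sites the fed libraries held 7, 7 and 12 and the starved libraries 2, 1 and 2. The difference of −7.00 sites was the largest of the 9 genes, with no overlap (exact permutation p = 0.1). All 12 sites were inside the gene body. Only chr1:136866504-136867175 was called in all 6 libraries, at ranks of 64.7, 66.9 and 79.9 in fed and 44.2, 44.0 and 54.7 in starved. The fed sites chr1:136948934-136949382 and chr1:136927456-136927967 had no starved peak, at mean fed ranks of 31.7 and 31.9. Per length Nr5a2 was the most thinly occupied gene, with 0.633 sites called in all 6 libraries per 100 kb of window. The median was 3.77 over the 9 genes and 1.98 over all genes with a site.

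Foxa1 (chr12:57540628-57548029, minus strand), a forkhead pioneer factor gene, had 5 sites, with 4, 4 and 5 in fed and 3, 2 and 3 in starved. The groups did not overlap (exact permutation p = 0.1), but the difference was 0 for the gene body alone. A pair of sites inside the gene, chr12:57544857-57546258 and chr12:57541850-57543326, was called in every library. Foxa1 also had a fed site without a starved peak, chr12:57548430-57548656, upstream of the promoter and over the neighbouring gene Ttc6, at a mean fed rank of 23.8. A downstream site was called in all 3 fed and 2 starved libraries.

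Foxa2 (chr2:148042877-148046969, minus strand) had the fewest sites, 4, with 2, 3 and 4 in fed and 2, 1 and 1 in starved. These groups overlapped (exact permutation p = 0.2), and without the first fed or the first starved library they did not. The site chr2:148048065-148049245, upstream of the gene, was called in all 6 libraries at ranks of 93.2, 95.0 and 88.8 in fed and 90.0, 79.3 and 95.2 in starved. No fed site of Foxa2 lacked a starved peak.

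Foxa3 (chr7:19013283-19023539, minus strand), a forkhead factor gene of adult liver, had 13 sites, the most of the 9 genes. The fed libraries held 10, 7 and 13 and the starved libraries 5, 4 and 4, without overlap (10 ± 3 against 4.33 ± 0.577, SD, n = 3 each, exact permutation p = 0.1). The groups overlapped at the score limit and with windows of 5 kb or 0 kb, with differences of −1.33, −3 and −1.67 sites. The site over its start, chr7:19023262-19024193, ranked at 97.3, 93.5 and 96.4 in fed and 84.1, 75.0 and 90.7 in starved. The site chr7:19005873-19007388, downstream of the gene and over Irf2bp1, was among the best of each list, at 96.7, 97.2 and 99.9 in fed and 97.5, 98.6 and 95.7 in starved. An upstream site over Sympk, chr7:19029110-19029994, was called in all 6 libraries too, with starved ranks that spread from 25.0 to 64.5. Foxa3 lies among close neighbours, and its fed sites without a starved peak, chr7:19032590-19032879 and chr7:18998914-18999191, were over Sympk and Mypop. They had the lowest mean fed ranks of the 42 member fed sites, 7.93 and 10.8.

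Cebpa (chr7:35119293-35121928, plus strand) encodes C/EBPα, which holds hepatocytes in a differentiated, resting state. It had 8 sites, with 4, 3 and 8 in fed and 2, 1 and 1 in starved, and the groups did not overlap (exact permutation p = 0.1). Without the third fed library the difference of −3.67 sites became −2.17. The groups overlapped at the score limit, with peaks trimmed to 200 bp and with windows of 5 kb or 0 kb, with differences of −0.67, −2.33, −1.33 and 0 sites. The site over its start, chr7:35117744-35120217, was the only one called in all 6 libraries and ranked at 97.8, 99.4 and 91.7 in fed and 86.9, 84.0 and 96.1 in starved. The fed site without a starved peak, chr7:35131630-35131933, was downstream of the gene over Gm35724.

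Cebpb (chr2:167688915-167690432, plus strand) encodes C/EBPβ, known for its part in the acute phase response and in gluconeogenesis. It had 8 sites, with 5, 5 and 7 in fed and 6, 4 and 5 in starved. The groups overlapped, with 5.67 ± 1.15 (SD, n = 3) in fed and 5 ± 1 (SD, n = 3) in starved (exact permutation p = 0.7). The difference of −0.67 sites became 0 without the third fed library, −0.17 without the second starved and −1.17 without the first starved library. It was 0 with peaks trimmed to 200 bp and −3.67 with 50 kb windows, and at the score limit the groups did not overlap (−1). Whether this difference was smaller than that of the other genes was not tested. The 4 sites called in all 6 libraries lie between the start and 13.4 kb upstream of it, which gave 9.63 such sites per 100 kb of window, the highest of the 9 genes. The sites chr2:167679689-167681547 and chr2:167684851-167685731 ranked between 97.7 and 99.6 in fed and between 94.7 and 99.2 in starved. The site over the start, chr2:167687960-167689400, ranked at 97.0, 97.4 and 99.5 in fed and 87.4, 90.6 and 87.1 in starved. Cebpb also held the single site of the 85 with no fed peak, chr2:167697882-167698058, which was called in the first starved library alone at a rank of 6.44.

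Onecut1 (chr9:74861921-74889648, plus strand) encodes HNF6, which acts upstream of HNF4A and FOXA2 in the developing liver. Its 12 sites gave 7, 7 and 12 in fed and 5, 4 and 5 in starved, without overlap (exact permutation p = 0.1). Without the third fed library the difference of −4.00 sites became −2. None of its 6 fed sites lacked a starved peak, and 4 were called in all 6 libraries. A row of 3 of these, chr9:74866229-74867343, chr9:74867698-74868571 and chr9:74870798-74871534, lies inside the gene, centred up to 9.24 kb after the start. They also overlap the gene Gm38678. The last was the best ranked, at 93.0, 87.4 and 88.0 in fed and 76.7, 86.0 and 91.4 in starved. The fourth, chr9:74904638-74905350, lies downstream.

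Prox1 (chr1:190118035-190170827, minus strand) encodes a homeodomain factor of hepatoblast migration that also represses LRH-1 targets. Its counts were the most uneven among fed libraries, 4, 3 and 11 sites, against 1, 1 and 3 in starved. The groups overlapped (exact permutation p = 0.2), and without the second fed or the third starved library, or at the score limit, they did not. The difference of −4.33 sites became −1.83 without the third fed library. The single site called in all 6 libraries was chr1:190115943-190116460, just past the 3′ end. In the full lists it ranked at 64.7, 51.4 and 68.1 in fed and 17.5, 12.9 and 5.95 in starved. In lists of equal length it was weak in both groups. There it was kept only in the first and second fed lists, at 17.1 and 0.355, and in the second starved list, at 12.9. A pair of upstream fed sites over Prox1os was called in the third starved library alone.

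**Figure D3:**
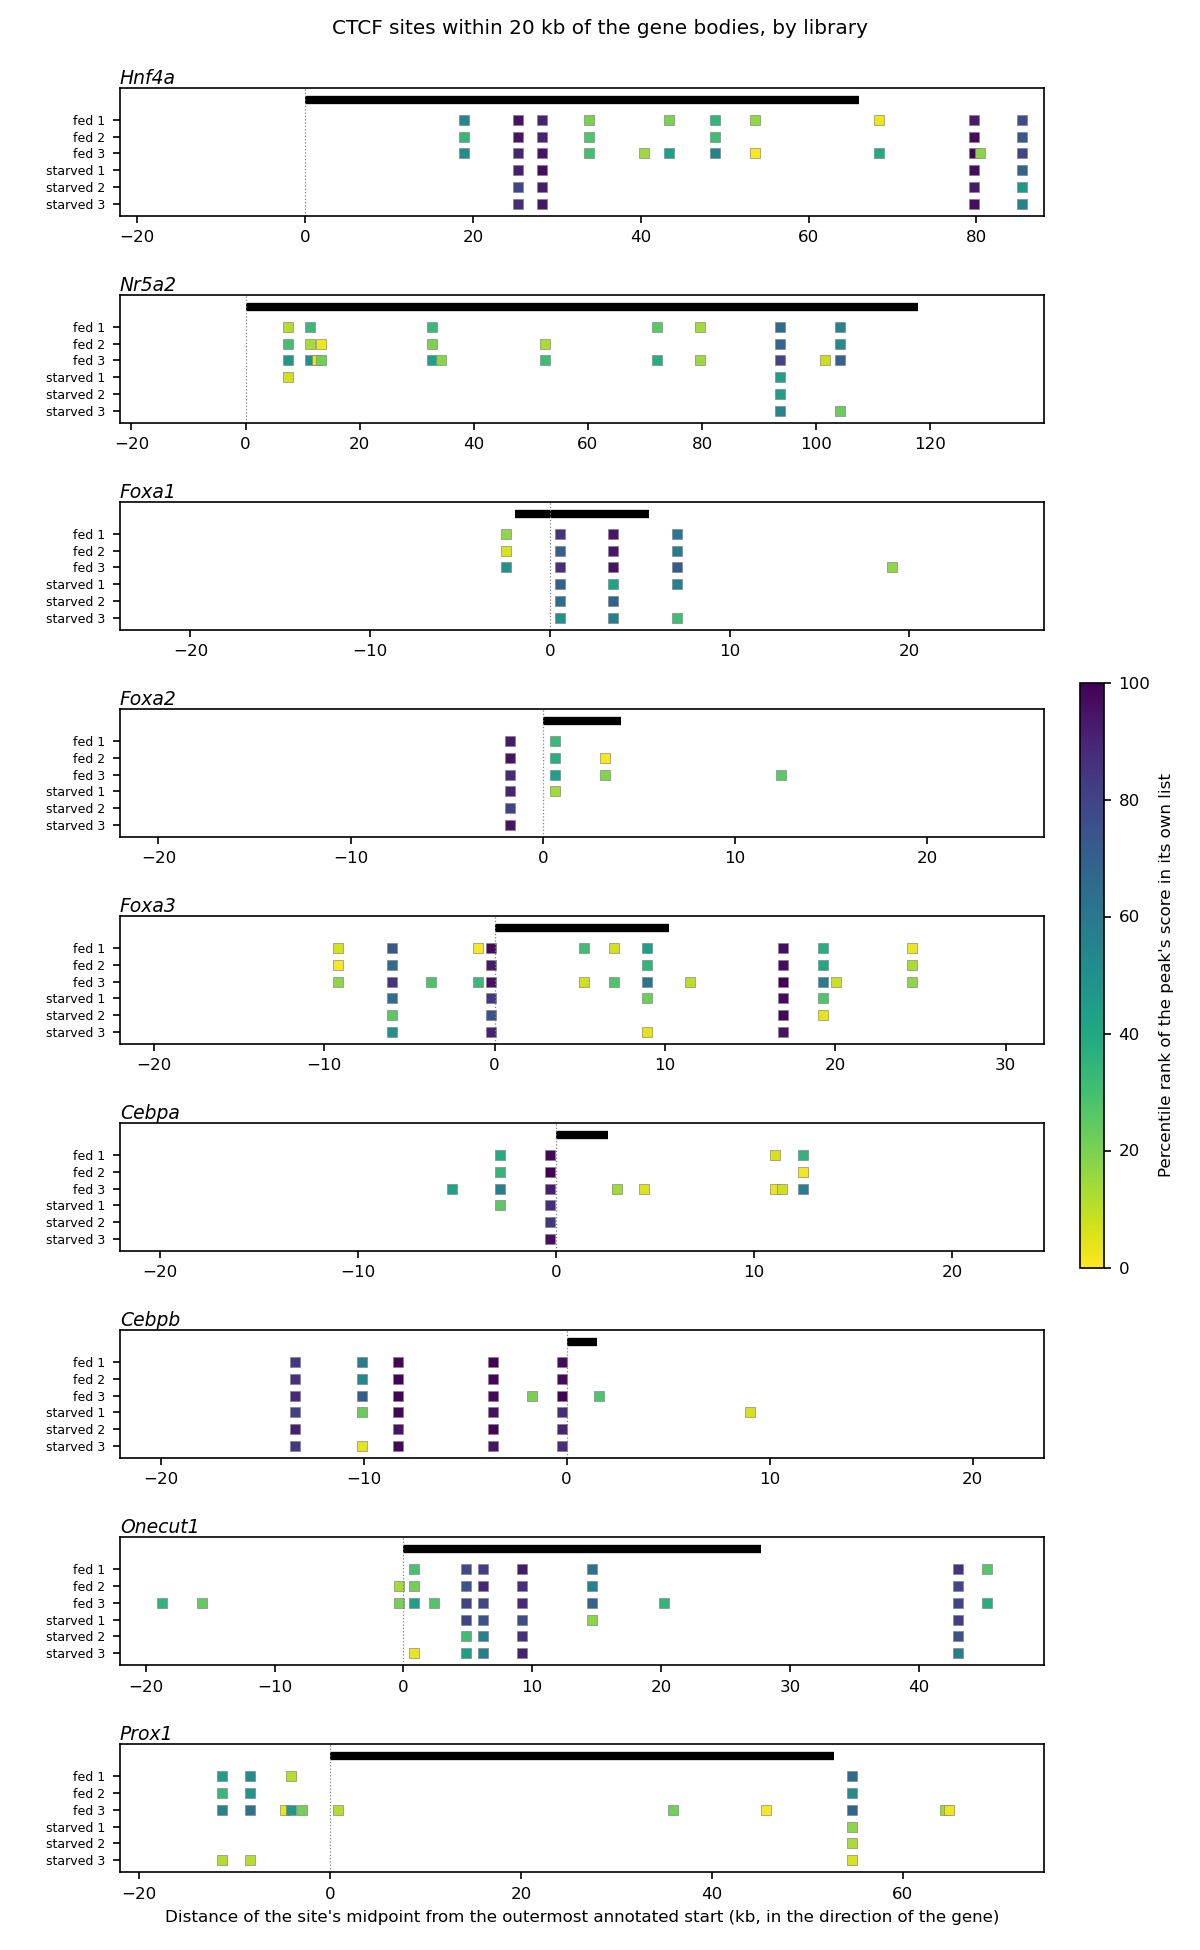
All 85 sites by distance in kb from the outermost annotated start of each gene, 1 row per library (3 fed, 3 starved), with colour for the percentile rank of the peak's score in its own list and a bar for the gene body. Dark marks line up through all 6 rows at the promoters of Foxa3, Cebpa and Cebpb, whereas most marks present in the third fed library alone are pale.

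Of the 85 sites, 42 were fed sites (49.4%). A further 42 were called in 1 or 2 fed libraries, 27 of them in the third fed library alone, which had the longest list. Of the 42 fed sites 9 (21.4%) had no starved peak, 12 had a peak in some starved libraries, and 21 (50%) were called in all 3. These shares stand beside 29.1% and 49.3% over all fed sites. The count of 9 depends on the rule. With the second fed library left out, 53 sites were called in the other 2 fed lists, and 20 of them had no starved peak. No share over all sites is given for that looser rule. The 9 sites came from 5 genes, 3 in Hnf4a, 2 each in Nr5a2 and Foxa3, and 1 each in Foxa1 and Cebpa. Of the 21 sites in all 6 libraries, 11 overlapped the gene body, 5 were upstream and 5 downstream, and 7 overlapped another annotated gene.

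Rank in the fed lists separated the sites called in all 3 starved libraries from those called in none. The 9 sites without a starved peak had mean fed ranks up to 46.2 (median 30.7). The 21 sites called in all 3 starved libraries began at 61.4, in Prox1, and had a median of 91.9. Over all fed sites the same gradient held: in the band from 20 to 30 points, 87.7% had no starved peak, and in the band from 80 to 90 points 99.9% were called in all 3 starved libraries. Averaged over the bands of the 42 member sites, these shares were 28.4% without a starved peak and 54.9% in all 3. The members' fed sites had a median rank of 62.9, and all fed sites 61.1. The plot of fed rank against starved libraries shows this order.

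**Figure D4:**
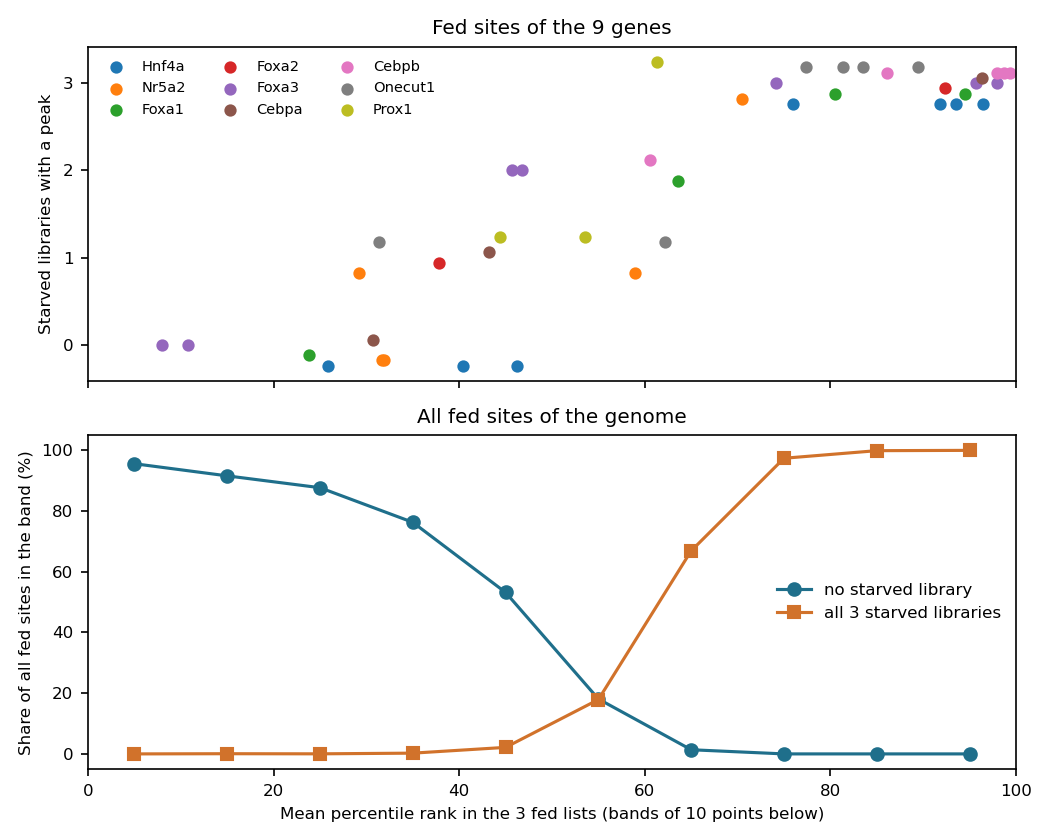
Upper panel: mean fed rank of the 42 fed sites of the 9 genes (horizontal) against the number of starved libraries with a peak (vertical, 0 to 3, with a small offset per gene so that points do not hide one another). Lower panel: share of all fed sites, in bands of 10 points, with no starved peak or with a peak in all 3 starved libraries, which are 18.1% and 17.9% between 50 and 60 points.

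When every list was reduced to 23926 peaks, the difference in the number of sites was no longer seen. An equal number of peaks in every list largely fixes this outcome in advance, so it is a description and not a test. No share of all genes called on these lists is given. The fed libraries then held 24, 25 and 23 member sites and the starved libraries 24, 22 and 22. Of the member sites 22 were in all 3 reduced fed lists, and each of these had a starved peak as well, 20 of them in all 3 starved libraries, and over all 21705 sites in the reduced fed lists the share in all 3 was 88.9%. Hnf4a held 4 sites in each of the 6 libraries and Foxa2 held 1 in each. Foxa3 held 3, 3 and 3 in fed and 4, 4 and 3 in starved, and Cebpa 1, 1 and 1 in fed and 2, 1 and 1 in starved, so their differences of −5.67 and −3.67 sites became 0.67 and 0.33. Nr5a2, with the largest difference in the full lists, held 1, 2 and 2 in fed and 1, 1 and 2 in starved.

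On the reduced lists the ranks of 19289 sites with a peak in all 6 libraries could be compared, 20 of them members. Over all of them 7.77% ranked lower in every starved than in every fed library and 7.26% ranked higher. None passed after adjustment of the exact permutation p (smallest adjusted p = 0.665), and 0 had an unadjusted p under 0.05, which the design does not allow. Of the 20 member sites 2 ranked lower in starved, in Foxa1 and Cebpb, and 2 ranked higher, in Hnf4a and Cebpb. For the other 16 the groups overlapped. The count of 4 became 7 without the first or without the third starved library, each time with 3 lower and 4 higher, when fewer ranks have to stay apart.

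The largest of these differences was inside Foxa1. The site chr12:57541850-57543326, 3.52 kb after the start, ranked at 85.4, 88.6 and 85.6 in fed and 24.9, 70.04 and 47.0 in starved. The mean was 86.6 ± 1.81 in fed and 47.3 ± 22.6 in starved (SD, n = 3 each), a difference of −39.2 points (exact permutation p = 0.1). All 3 starved ranks were below the fed ranks, but they differed widely among themselves. Of the 19289 sites 17 had a more negative difference, a comparison made after the value had been seen. The next Foxa1 site, chr12:57544857-57546258, ranked at 65.0, 38.5 and 57.8 in fed and 61.2, 64.5 and 36.3 in starved, and these overlapped (exact permutation p = 1). Whether the 2 sites differed in their change was not tested.

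Cebpb had a site in each direction. The site over its start ranked at 93.0, 94.6 and 98.3 in fed and 83.8, 90.6 and 83.9 in starved, a difference of −9.21 points. The site 13.4 kb upstream, chr2:167674952-167676134, ranked at 61.9, 71.3 and 63.7 in fed and 75.9, 91.8 and 80.4 in starved, a difference of 17.1 points that became 10.05 without the second starved library. In Hnf4a the site chr2:163534516-163535562, between the starts, ranked at 77.5, 80.5 and 83.2 in fed and 96.5, 92.6 and 93.5 in starved, a difference of 13.8 points. Each of these 3 had an exact permutation p of 0.1. The other Hnf4a site between the starts ranked at 89.8, 89.3 and 68.8 in fed and 89.3, 79.5 and 84.5 in starved, and its groups overlapped. The Cebpa promoter site ranked at 94.7, 98.8 and 74.1 in fed and 83.2, 84.0 and 95.2 in starved, also with overlap. The Foxa3 promoter site ranked at 93.6, 86.6 and 88.8 in fed and 79.6, 75.0 and 88.3 in starved (exact permutation p = 0.2). The median difference was 0.90 points over the 20 member sites and −0.20 over all 19289.

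**Figure D5:**
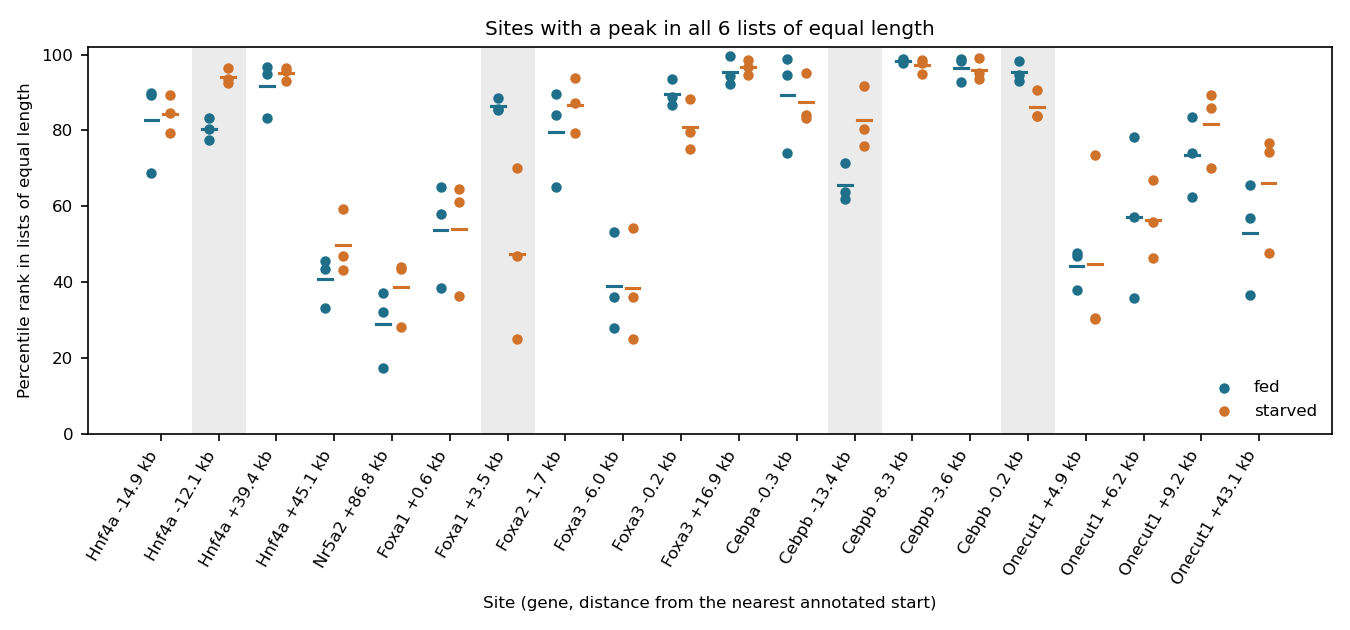
Percentile rank of the 20 member sites with a peak in all 6 lists of equal length (vertical), 1 point per library with 3 fed and 3 starved libraries and a short line for each mean; sites are named by gene and distance from the nearest annotated start in kb. The Foxa1 site at +3.5 kb is the widest gap, with fed points between 85.4 and 88.6 and starved points between 24.9 and 70.04.

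Other transcription factor genes were counted in the same way. A list of 38 further factors of the liver held 445 sites, none shared with the 9 genes. It had 205 fed sites, of which 56 (27.3%) had no starved peak and 99 (48.3%) were called in all 3 starved libraries. Of the 38 genes 25 held more sites in every fed than in every starved library. The share was 50.7% over all genes with a site and 68.2% over those with 4 to 13 sites. The gene of Nr0b2, the corepressor SHP, was the single one with no starved peak at any of its fed sites. It had 1 fed site, at a mean rank of 18.2. Lineage factor genes of other liver cell types, 32 in number, held 166 sites and 99 fed sites. Of these fed sites 26 (26.3%) had no starved peak and 53 (53.5%) were in all 3. Of the 32 genes 18 held more sites in every fed than in every starved library. By cell type, the starved libraries had no peak at 5 of the 13 fed sites of cholangiocyte factors, 7 of the 24 of lymphocyte factors, 2 of the 9 of stellate cell or fibroblast factors, 7 of the 27 of endothelial factors and 5 of the 26 of Kupffer cell or macrophage factors. These are counts of sites at gene loci and say nothing of how many such cells the livers held.

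The genes of the list of 38 whose 6 counts were nearest to those of each of the 9, by Euclidean distance over the 6 libraries, were as follows. Bcl6 was nearest to Hnf4a (distance 3.32), Foxa3 (3.00) and Onecut1 (2.45). Hhex was nearest to Nr5a2 (2.24), Gata6 to Foxa2 (1.41), Cebpg to Cebpa (1.41) and Nr1h4 to Prox1 (2.24). Nr1i2 and Nr2f1 were equally near to Foxa1 (1.73), and Creb3l3 was nearest to Cebpb (3.32). All these counts come from the same 6 lists.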

How the data were processed

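Livers were snap-frozen whole and CTCF ChIP libraries made with MicroPLEX v2, per the labels' protocols. Of the deposited data, 6 peak lists were used, 1 for each of 3 fed and 3 starved libraries; the 3 fed and 3 starved inputs were not analysed here. The submitters' processing notes name mm10 as build and, without roles, HOMER, MACS2, bedtools 2.17, SAMtools, BWA 0.7.5a and FastQC as tools. The fifth column of each list is a score deposited by the authors. For its meaning, the read depth and the use of the inputs, nothing is given in the sources used here. How many peaks a list holds depends on depth and enrichment.

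Peaks sharing at least 1 bp were merged into sites (Python 3.11.15, pandas 2.3.3, scipy 1.17.1). Gene positions and promoters came from RefSeq GRCm38.p6, which matched all 9 genes and all 38 further liver factors and 32 factors of other cell types. Coordinates are mm10, counted from 1. Counts of sites and ranks on lists of equal length were compared by exact permutation, with Benjamini-Hochberg adjustment over all genes or sites. Merging, presence classes and rank calls were checked on simulated lists that all had the same length. That check did not cover lists of unequal length, their reduction to equal length or the counts of sites per gene. The text gives every member, each of its sites called in all 6 libraries or in the 3 fed ones alone, and those over promoters. Peak width and the order of the Foxa1 difference were added after values had been seen. The members, lists and tests were chosen with earlier results of these data known.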

Additional observations from a re-analysis of the deposited data

How the results depend on the processing

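The 42 member sites called in all 3 fed libraries became 22 with lists of equal length, 26 with a score at or above the overall median of 30.4, 22 with gene bodies alone (0 kb) and 70 with 50 kb windows, and lay between 42 and 53 when each library was left out in turn. The 9 without a starved peak became 0, 5, 5 and 18 under the same 4 settings, 32 where at least 2 of 3 libraries sufficed, and 9 to 20 with a library left out, 20 without the second fed library. The 21 called in all 3 starved libraries became 11 with gene bodies alone and 36 with 50 kb windows, and 21 to 24 with a library left out. The 6 genes with more sites in every fed library became 0 with lists of equal length and 3 with gene bodies alone, and 6 to 7 with a library left out. At the score limit the count was 5 but of other genes: Hnf4a, Foxa3 and Cebpa lost the call, and Cebpb and Prox1 gained it. The 9 differences lay between −2.33 and 0 sites at the score limit and between −10 and −2.67 with 50 kb windows. The 4 sites whose ranks did not overlap became 10, all lower in starved, with ranks from the full lists of unequal length, and 5 to 7 with a library left out. For these counts of called genes and of sites with ranks apart, no share over all genes or sites is given under the alternatives. They therefore have no background beside them.

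The deviations of samples with the same replicate number had correlations of 0.0119, −0.0276 and 0.012. Between different numbers the correlations ran from −0.0335 to 0.0218. Such values cannot decide whether libraries with the same number were handled together, and the main tests did not pair them. With the replicate number as a block, 7 genes held more sites in fed within every pair, Prox1 being the addition, and the 4 sites became 8. That rule is looser, as it asks for order only within pairs, and no share over all genes or sites is given for it. That test allows no p below 0.25. In lists of equal length the difference turned to 0.67 sites for Foxa3 and 0.33 for Cebpa, and with full-list ranks the upstream Cebpb site turned to −0.27 points. For single genes and sites, 133 values under alternatives kept their direction and call, 4 uncalled ones became 0, 14 lost the call, 8 gained it and 3 turned. The causes were not tested. Without read depth, an uncalled site cannot be told from one below detection.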
